A study of Homo sapiens with 2 samples.

Results

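Kinesins are motor proteins that use ATP to move along microtubules or to take them apart, and the human genome encodes a large family of them. The kinesin genes described here were all symbols in the count tables that consist of KIF, a number and at most a family letter with a further digit. The pattern matched 39 of the 24462 distinct symbols. Within these, 13 were classed as mitotic kinesins, 15 as transport kinesins and 11 as other kinesins, by their known roles. The pattern leaves out KIFC1, KIFC2, KIFC3 and CENPE, which are also kinesins and are described as neighbours of the set.

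Counts came from 2 libraries of A549, an established human lung adenocarcinoma line grown in DMEM with fetal bovine serum. Cells of the control group were given control siRNAs, and cells of the other group were given ADGRF4 siRNAs, aimed at an adhesion G protein-coupled receptor. The sources used here do not give the siRNA sequences, the dose or the time after transfection. Each group was 1 library, so no difference below has a replicate check, none was tested, and all intervals cover counting error only.

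The control library held 10396047 counts and the ADGRF4 siRNA library 9825320. ADGRF4 had 3 counts and 1 count, no more than the 3 that an observed 0 would allow, so the silencing could not be checked from the target. Epithelial markers were all read, for example keratin KRT18 with 58990 and 79367 counts, and of 11 such markers 3 lay past 1.5-fold upwards and 6 downwards. The alveolar type 2 markers SFTPA1, SFTPB, SFTPC, NKX2-1, NAPSA and LAMP3 had between 0 and 9 counts in a library. Of 10 markers of blood, stromal and endothelial cells, 9 had between 0 and 10 counts in a library, and COL1A1 had 50 and 45. A symbol was compared where its counts averaged 30 or more, which held for 11771 symbols. Of these, 21.1% were at least 1.5-fold higher and 22.3% at least 1.5-fold lower in the ADGRF4 siRNA library. At 2-fold the shares were 7.84% and 10.4%.

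In dividing cells, mitotic kinesins push spindle poles apart, position chromosomes, trim microtubule ends and build the midzone where the cell is later cut. Most of them are made in G2 and mitosis, when promoters with a CHR (cell cycle genes homology region) and CCAAT boxes are active. The CHR is bound by complexes built on the MuvB core, and the CCAAT box by the trimeric factor NF-Y. Transport kinesins carry vesicles, endosomes, mitochondria and RNA towards microtubule plus ends, and cells need them at all stages of the cycle.

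The promoters of the classes differed in these letters, which the choice of members did not use. RefSeq windows (GRCh38.p14) from 250 bases before to 50 bases after a gene's start were found for 33 of the 39 kinesins. TTTGAA, taken here as the core of the CHR, was searched on both strands, as was CCAAT. Matches of both can share no more than an end base. TTTGAA was present in 9 of 14 windows of mitotic kinesins (64.3%), in 1 of 17 of transport kinesins (5.88%), in 0 of 11 of the others, and in 15.2% of all 35116 windows. CCAAT was present in 10 mitotic windows (71.4%), 5 transport windows (29.4%) and 34.6% of all windows. Both motifs stood in 8 of the 14 mitotic windows (57.1%) against 5.9% of all. A match of letters is a description of the window and not evidence of binding.

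The 120 bases before the start are shown for 8 members picked by hand, in part for their motifs, 5′ to 3′ on the gene's own strand. They are examples and do not give the frequency of the motifs in a class. KIF2C, a mitotic kinesin at least 1.5-fold lower after ADGRF4 siRNA, had no match of either motif in its window and is not printed. TTTGAA and CCAAT, or their reverse complements TTCAAA and ATTGG, are in capitals. KIF23 and KIF20A had the largest deficits among mitotic kinesins; KIF18A, KIF4A and KIF11 carry both motifs; KIF22 was the mitotic member with a higher count; and KIF1C and KIF5B were the most abundant transport kinesins. In the order printed the windows are chr15:69414229-69414348 (plus strand), chr5:138178992-138179111 (plus), chr11:28108157-28108276 (minus), chrX:70289984-70290103 (plus), chr10:92593010-92593129 (plus), chr16:29790631-29790750 (plus), chr17:4997830-4997949 (plus) and chr10:32056426-32056545 (minus).
KIF23: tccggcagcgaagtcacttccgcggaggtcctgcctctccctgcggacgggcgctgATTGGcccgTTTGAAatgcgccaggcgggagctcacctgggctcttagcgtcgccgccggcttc
KIF20A: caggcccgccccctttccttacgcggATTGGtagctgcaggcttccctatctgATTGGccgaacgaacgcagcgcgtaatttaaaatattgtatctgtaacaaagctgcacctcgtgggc
KIF18A: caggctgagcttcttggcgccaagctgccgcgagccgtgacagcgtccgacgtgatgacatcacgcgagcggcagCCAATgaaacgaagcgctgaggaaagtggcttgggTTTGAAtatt
KIF4A: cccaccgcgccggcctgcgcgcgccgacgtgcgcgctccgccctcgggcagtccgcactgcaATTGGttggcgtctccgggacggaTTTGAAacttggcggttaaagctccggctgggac
KIF11: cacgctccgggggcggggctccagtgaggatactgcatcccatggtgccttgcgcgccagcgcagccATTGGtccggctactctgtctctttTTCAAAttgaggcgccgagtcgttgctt
KIF22: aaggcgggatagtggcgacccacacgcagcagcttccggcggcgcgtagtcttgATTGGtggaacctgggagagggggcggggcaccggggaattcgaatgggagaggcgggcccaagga
KIF1C: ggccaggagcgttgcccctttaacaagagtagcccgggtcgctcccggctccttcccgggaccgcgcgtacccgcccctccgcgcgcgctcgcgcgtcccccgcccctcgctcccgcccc
KIF5B: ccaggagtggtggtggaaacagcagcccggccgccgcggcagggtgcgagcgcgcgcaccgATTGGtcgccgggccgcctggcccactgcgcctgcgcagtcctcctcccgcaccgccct

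In KIF23, KIF18A, KIF4A and KIF11 the CCAAT box lay upstream of the TTTGAA letters. In KIF4A the boxes began 58 and 34 bases before the start, in KIF11 53 and 28 bases, and in KIF18A 45 and 10 bases. In KIF23 they stood closer together, at 64 and 55 bases. KIF20A had 2 CCAAT boxes and no TTTGAA in its window. KIF5B, a transport kinesin, had TTTGAA 140 bases before its start, outside the stretch printed.

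Of the 39 kinesins, 35 had at least 1 count in a library and 29 had enough counts to be compared. The compared set held 12 mitotic, 11 transport and 6 other kinesins. KIF2B, a spindle depolymerase, and KIF6, KIF19 and KIF26B had no count in either library, which allows up to 0.289 CPM (counts scaled to a library of equal total size) in the control and 0.305 CPM in the ADGRF4 siRNA library. KIF17, a kinesin of cilia and dendrites, had 1 count in each. KIF5A and KIF5C, the neuronal heavy chains of conventional kinesin, had 5 and 0 counts and 15 and 16 counts. KIF7, a regulator of Hedgehog signalling at the ciliary tip, lay just under the limit with 41 and 16 counts, and its last exon is overlapped by TICRR on the other strand, which had 164 and 60.

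KIF1A and KIF25 were read mainly after ADGRF4 siRNA, at low depth. KIF1A, which carries synaptic vesicle precursors in neurons, had 0 control counts and 19 in the ADGRF4 siRNA library, at least 7.43-fold higher when 3 counts are put in place of 0 and the 19 are taken as exact. With counting error in both libraries, the exact interval began at 5.47-fold. KIF25 had 2 and 12 counts, 7.04-fold higher with a range of 1.57 to 64.7. Neither passed the count limit. The final 300 bases of their transcripts are GC-rich, at 59.3% for KIF1A and 55% for KIF25, against a median of 40.3% for all compared symbols. Exons of KIF25 are overlapped on the other strand by KIF25-AS1, which had 32 and 22 counts.

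The 39 genes made up 0.178% of the control library and 0.152% of the ADGRF4 siRNA library. Levels are compared between genes as CPM with TMM scaling (a trimmed mean of gene-wise log ratios) and are not divided by length, because the kit reads the end of each transcript. In the control, KIF5B was highest at 282 CPM, followed by KIF1C at 183, KIF20B at 175, KIF3B at 123 and KIF21A at 111. KIF1C (2000 counts, exact Poisson interval 1910 to 2090) and KIF20B (1917 counts, 1830 to 2000) did not differ beyond counting error. After ADGRF4 siRNA the first place was held by KIF1C at 362 CPM, ahead of KIF5B at 201, KIF3B at 122, KIF20B at 121 and KIF1B at 104. KIF3B and KIF20B, with 1136 and 1130 counts, did not differ beyond counting error there. KIF18A, at 7.03 and 4.93 CPM, was the lowest compared mitotic kinesin, and KIF21B, at 3.47 CPM, the lowest compared kinesin of the control library.

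**Figure D1:**
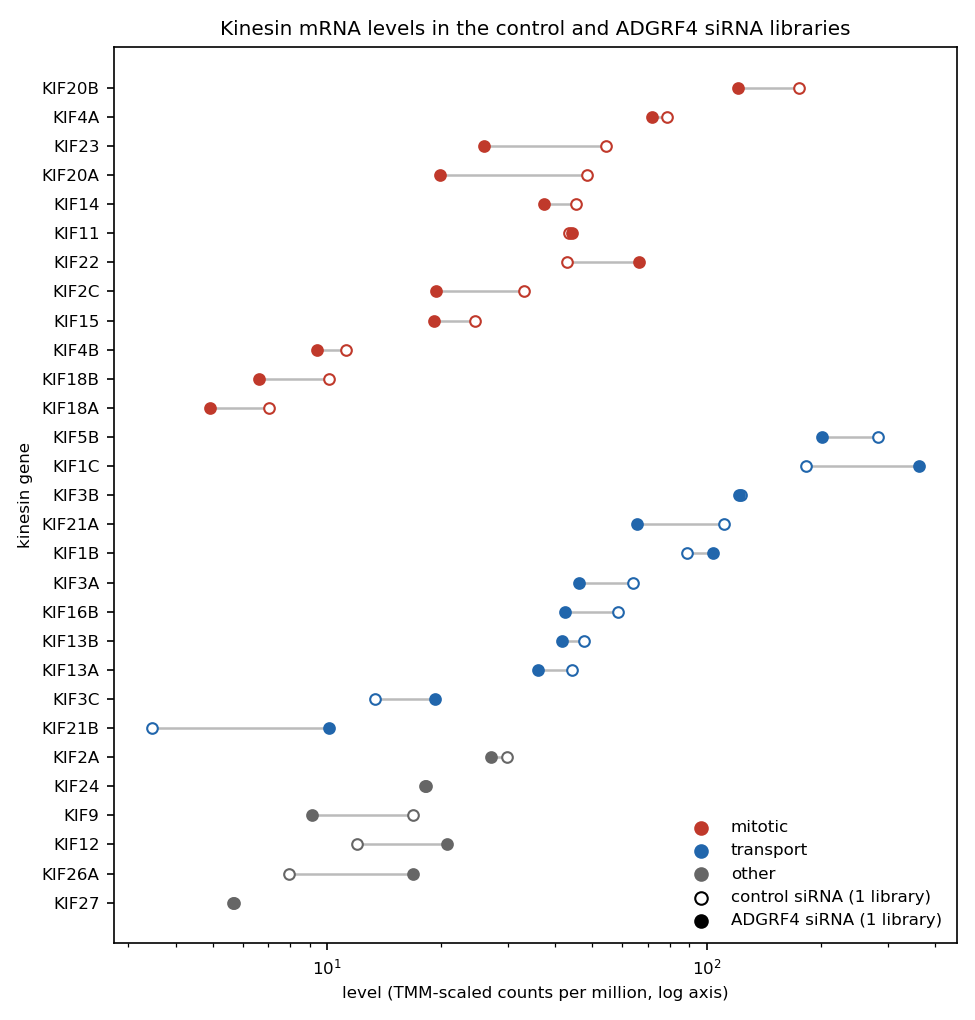
Level of the 29 compared kinesins in TMM-scaled CPM (log axis), 1 row per gene, coloured by class; open points are the control siRNA library and filled points the ADGRF4 siRNA library, each a single library with no error bar. Filled points lie left of open points for 10 of the 12 mitotic kinesins, and KIF1C runs against this from 183 to 362 CPM.

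Across the mitotic kinesins, 10 of 12 had a lower scaled count after ADGRF4 siRNA, against 51.0% of all compared symbols. The median log2 ratio (ADGRF4 siRNA over control, with 1 CPM added to both) was -0.39, where all compared symbols had a median of -0.016. The size of most differences was small. At least 1.5-fold lower were 3 of the 12 (25.0%, against 22.3% of all symbols), and 2 of these were at least 2-fold lower (10.4% of all symbols). Only KIF22 was at least 1.5-fold higher (8.33%, against 21.1% of all symbols). The share at least 1.5-fold lower was thus close to the background, and what most members had in common was the sign. Their transcripts also have AT-rich ends. Centred on GC content, that is, relative to the median of all symbols with a like GC content in the final 300 transcript bases, the class median was -0.14. In bulk RNA, fewer cells in G2 and mitosis and less RNA per cell cannot be told apart.

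The largest deficits were those of KIF20A and KIF23, which act at the spindle midzone and in cytokinesis. KIF20A, which brings the chromosomal passenger complex to the midzone, had 530 control counts and 185 counts after ADGRF4 siRNA. Its scaled count was 2.44-fold lower (exact 95% interval 2.06 to 2.90). The last exon of KIF20A is overlapped on the other strand by CDC23, which had 378 and 151 counts, and how strand was used in counting is not given in the sources used here. KIF23, the motor subunit of centralspindlin, had 593 and 243 counts, a 2.08-fold lower level (1.79 to 2.43). Its partner RACGAP1 had 167 and 58 counts, 2.46-fold lower (1.81 to 3.37). The number of KIF23 counts per RACGAP1 count, which needs no library scaling, was 3.55 (2.99 to 4.24) and 4.19 (3.13 to 5.68), with overlapping ranges.

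KIF20B, which acts late in cytokinesis, was the most abundant mitotic kinesin. It had 1917 and 1130 counts, 1.45-fold lower (1.34 to 1.56). KIF14, which binds citron kinase and the midzone protein PRC1, was 1.22-fold lower (1.06 to 1.40) at 496 and 347 counts. The midzone motors thus differed among themselves, from 1.10-fold lower for KIF4A to 2.44-fold for KIF20A. KIF4A, which works with PRC1 to limit the length of the midzone, had 864 and 671 counts, and its interval (0.991 to 1.22) included no difference.

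KIF4B is an intronless copy of KIF4A, and the last 300 bases of their transcripts are 93.1% identical over the aligned stretch. It had 123 and 88 counts, or 0.142 counts per KIF4A count in the control library and 0.131 in the other. These shares did not differ beyond counting error (0.117 to 0.172 and 0.104 to 0.164), and reads of the pair may have been assigned to either gene. Without KIF4B the median log2 ratio of the mitotic class was -0.44.

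Motors that set up and trim the spindle ranged from no measurable difference to a 1.70-fold deficit. KIF11, the tetrameric motor that slides antiparallel microtubules to separate the poles, had 475 and 413 counts, a ratio of 1.02 (0.892 to 1.17). KIF15, which can take over part of that task, had 268 and 178 counts, a 1.28-fold lower level (1.06 to 1.56). TPX2, a spindle assembly factor that binds KIF11, was 1.52-fold higher (1.44 to 1.60). KIF15 counts per TPX2 count were 0.111 (0.0973 to 0.126) in the control and 0.0570 (0.0487 to 0.0663) after ADGRF4 siRNA, a gap wider than counting error. The ends of KIF15 and TPX2 differ in GC content (30.7% and 48.3%), and centred log2 values were nearer each other, at -0.034 and 0.44.

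KIF2C, which removes tubulin from microtubule ends at kinetochores, had 361 and 181 counts, 1.70-fold lower (1.42 to 2.04). KIF18B, which shortens astral microtubules, had 111 and 62 counts, a 1.53-fold lower level (1.11 to 2.12). KIF18A, which damps chromosome movements at the metaphase plate, had 77 and 46 counts, and its interval (0.978-fold to 2.10-fold lower) included no difference. With 1 CPM added, KIF18B stayed short of the 1.5-fold limit. These 3 motors act on microtubule ends, and only KIF2C was counted as lower.

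KIF22, a chromokinesin that pushes chromosome arms away from the poles, went the other way. It had 470 and 619 counts, 1.55-fold higher (1.37 to 1.75). KIF22 counts per KIF23 count were 0.793 (0.701 to 0.896) in the control library and 2.55 (2.19 to 2.97) after ADGRF4 siRNA. KIF22 also differed from the class in base composition, with 58.3% GC in its last 300 transcript bases, where the class median was 33.2%.

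**Figure D2:**
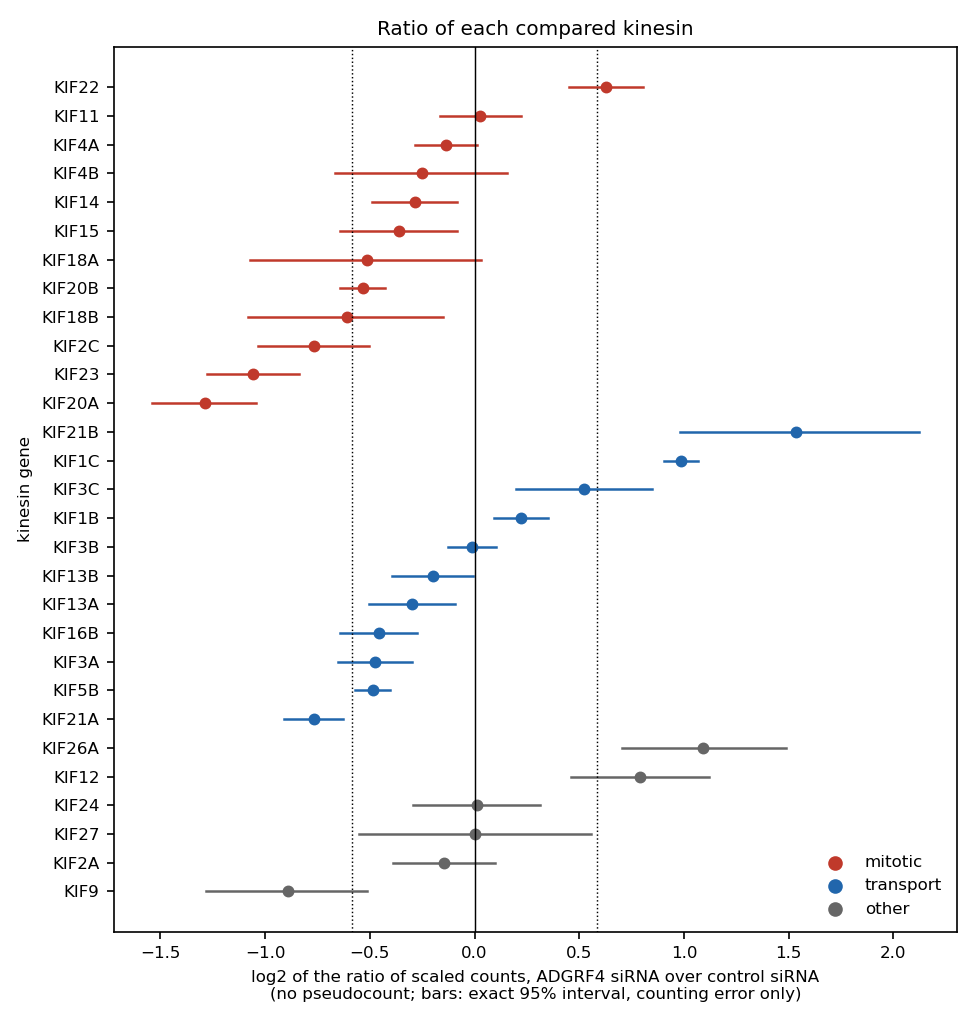
Log2 of the ratio of scaled counts, ADGRF4 siRNA over control siRNA, for the 29 compared kinesins, coloured by class and ordered by ratio within each class; points are ratios without a pseudocount, bars the exact 95% intervals for counting error, and dotted lines mark 1.5-fold. KIF20A and KIF23 lie farthest left among mitotic kinesins, KIF21B and KIF1C farthest right among transport kinesins.

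The mitotic members with the letters TTTGAA in the promoter window did not separate from those without them. Only this form was searched, so a member without it is not known to lack a CHR. The 9 with the motif ran in log2 ratio from -1.03 (KIF23) to 0.028 (KIF11), and the 3 compared members without it were KIF20A (-1.25), KIF2C (-0.74) and KIF22 (0.62). KIF23 and KIF4A both have the pair of boxes, though at different spacing, and their log2 ratios were -1.03 and -0.13. Among 12 compared genes for factors that act on such promoters, 4 were lower by 1.5-fold or more (33.3%, against 22.3% of all symbols), 2 were higher (16.7%, against 21.1%), and the median log2 ratio was -0.17. After centring on 3′ GC content, 2 of the 12 were lower and 1 was higher, against 2209 and 1748 of 11534 symbols. E2F4, a repressor subunit, was 3.03-fold lower (2.26 to 4.10) and RBL2, its pocket protein partner, 1.94-fold lower (1.57 to 2.39). The NF-Y subunit NFYC was 1.80-fold lower (1.59 to 2.03), and LIN37 of the MuvB core 1.85-fold higher (1.41 to 2.43), with a centred log2 value of 0.10. The centred value of RBL2 was -0.55, short of 1.5-fold.

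Partners of the mitotic kinesins showed no common direction. Past 1.5-fold lay 3 lower and 3 higher genes of the 15 compared, 20% each against 22.3% and 21.1% of all symbols. The median log2 ratio was -0.24, and -0.028 after centring on GC content. Of the 15, 2 were then lower and 1 higher, against 2209 and 1748 of 11534 symbols. Beside RACGAP1, the cohesin protector SGOL2 (now SGO2) was 1.97-fold lower (1.67 to 2.33) and the mitotic kinase CDK1 1.66-fold lower (1.51 to 1.83). PLK1, a kinase that works with KIF20A at the midzone, was 2.22-fold higher (2.06 to 2.40). PRC1 was 1.33-fold lower (1.24 to 1.44). The centred log2 values of CDK1 (-0.44) and TPX2 (0.44) fell short of 1.5-fold.

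Of the 4 kinesins outside the naming pattern, 2 were at least 1.5-fold lower (50%, against 22.3% of all symbols) and 1 was higher (25%, against 21.1%). KIFC1, a minus-end motor that bundles spindle poles, had 429 and 120 counts, a 3.05-fold lower level (2.48 to 3.76). KIFC3, a minus-end motor found at epithelial junctions, was 2.41-fold lower (2.15 to 2.69). KIFC2 was 2.62-fold higher (2.37 to 2.90). Centred on GC content, KIFC1 (-1.62) and KIFC3 (-1.83) were again past 1.5-fold, and KIFC2 (0.53) was not. CENPE, which carries chromosomes to the metaphase plate, was 1.31-fold lower (1.18 to 1.45).

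Transport kinesins were more evenly split. Of 11 compared, 7 had a lower and 4 a higher scaled count, and the median log2 ratio was -0.19. At least 1.5-fold lower was 1 of 11 (9.09%, against 22.3% of all symbols), and 2 of 11 were at least 1.5-fold higher (18.2%, against 21.1%). The mitotic median minus the transport median was -0.20, but the ranges of both classes overlapped over most of their length, from -1.25 to 0.62 and from -0.76 to 1.31. With a limit of 100 counts the difference of the medians was -0.069.

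Among the heavy chains of conventional kinesin, KIF5B carried nearly all counts. It had 3083 and 1878 counts, 1.40-fold lower (1.32 to 1.48). Of its light chains, KLC1, KLC2 and KLC4 were compared: KLC1 had 826 and 868 counts, KLC2 55 and 84, and KLC4 125 and 180. KLC2 and KLC4 were 1.79-fold (1.26 to 2.57) and 1.69-fold higher (1.34 to 2.14), opposite in sign to KIF5B. Their ends are GC-rich (70.3% and 55% GC), and the centred log2 values were -0.11 for KLC2, 0.13 for KLC4 and -0.19 for KIF5B, none past 1.5-fold.

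The kinesin-3 family held the most abundant kinesin of the ADGRF4 siRNA library. KIF1C, which carries vesicles and integrins in cells outside the nervous system, had 2000 and 3375 counts, a 1.98-fold higher level (1.87 to 2.09). Its relative KIF1B, a carrier of mitochondria and vesicles, had 974 and 969 counts, 1.17-fold higher (1.07 to 1.28). The endosome motors of the same family lay on the other side: KIF16B had 639 and 397 counts, 1.37-fold lower (1.21 to 1.56), and KIF13A 483 and 335, 1.23-fold lower (1.07 to 1.42). KIF13B had 521 and 387 counts, 1.15-fold lower (1.00 to 1.31), and its last exon is overlapped by an unnamed gene on the other strand. KIF1C counts per KIF5B count were 0.649 (0.613 to 0.686) in the control library and 1.80 (1.70 to 1.90) after ADGRF4 siRNA.

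In heterotrimeric kinesin-2, the motor of intraflagellar transport, the paired chains did not keep their ratio. KIF3A had 700 and 430 counts, a 1.39-fold lower level (1.23 to 1.57). KIF3B had 1344 and 1136 counts, a ratio of 0.991 (0.915 to 1.07). The number of KIF3B counts per KIF3A count was 1.92 (1.75 to 2.11) in the control library and 2.64 (2.36 to 2.96) in the other. The ends of KIF3B and KIF3A differ in GC content (37.7% and 25.7%), and the centred log2 values were 0.17 and -0.11. KIFAP3, the adaptor that joins them, had 224 and 183 counts, a ratio of 0.958 (0.784 to 1.17). KIF3C, which can pair with KIF3A in place of KIF3B, had 147 and 180 counts, 1.44-fold higher (1.15 to 1.80). The last exon of KIF3A is overlapped by an unnamed gene on the other strand.

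KIF21A and KIF21B, which slow microtubule growth as well as move along them, differed in opposite directions. KIF21A had 1220 and 611 counts, a 1.70-fold lower level (1.54 to 1.88). KIF21B had 38 and 94 counts, 2.90-fold higher (1.97 to 4.35). KIF21A counts per KIF21B count were 32.1 (23.3 to 45.6) in the control library and 6.5 (5.22 to 8.17) in the other. Their ends differ in GC content (29.3% for KIF21A and 45.3% for KIF21B). The centred log2 values were -0.42, short of 1.5-fold, and 1.23.

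The other kinesins include motors of cilia and of the centriole. KIF9, a motor of motile cilia, had 185 and 85 counts, a 1.86-fold lower level (1.43 to 2.43). Its exons are overlapped on the other strand by KIF9-AS1, with 25 and 11 counts, and KLHL18, with 34 and 8. KIF26A, which lacks ATPase activity, had 87 and 158 counts, 2.13-fold higher (1.63 to 2.80), and KIF12 had 131 and 193, 1.73-fold higher (1.38 to 2.17). KIF24, which trims centriolar microtubules, had 198 and 170 counts, and KIF27, a relative of KIF7, had 62 and 53. Ratios of 1.01 (0.816 to 1.24) and 1.00 (0.682 to 1.47) left these genes without a measurable difference. The last exon of KIF24 is overlapped on the other strand by UBAP1, which had 374 and 322 counts, and that of KIF27 by unnamed genes. KIF2A, a microtubule depolymerase used in mitosis and in neurons, had 327 and 252 counts, a ratio of 0.904 (0.764 to 1.07).

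Of the 13 compared light chains and cargo adaptors of kinesins, 2 were at least 1.5-fold lower (15.4%, against 22.3% of all symbols) and 3 higher (23.1%, against 21.1%), with a median of -0.059. After centring on GC content, 3 of the 13 were lower and 0 higher, against 2209 and 1748 of 11534 symbols. KIAA1279 (now KIFBP), which binds and inhibits several kinesins, was 1.56-fold lower (1.25 to 1.95), with a centred log2 value of -1.31. MAPK8IP3, an adaptor of axonal transport, was 2.69-fold higher (2.25 to 3.23), with a centred log2 value of 0.53. For dynein and dynactin, the machinery of minus-end transport, 8 of 23 compared genes were at least 1.5-fold higher (34.8%, against 21.1% of all symbols). Lower were 4 (17.4%, against 22.3%), and the median was 0.21. With GC centring, 7 of the 23 were higher and 4 lower, against 1748 and 2209 of 11534 symbols, and the median was 0.38. NDEL1, a dynein regulator, was 4.95-fold lower (3.91 to 6.34) and the light chain DYNLT1 2.89-fold lower (2.44 to 3.43). The dynactin subunits ACTR1A and DCTN2 were 2.14-fold and 2.07-fold higher (centred log2 values 0.38 and 1.18).

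The make-up of the kinesin counts gives a comparison that does not depend on how the libraries are scaled. Mitotic kinesins took 34.0% of all kinesin counts in the control library (6285 of 18488, exact 95% interval 33.3 to 34.7) and 27.9% after ADGRF4 siRNA (4163 of 14930, 27.2 to 28.6). Transport kinesins took 60.4% (59.7 to 61.1) and 65.8% (65.1 to 66.6). KIF1C alone took 10.8% and 22.6%. With KIF1C left out of the total, the mitotic share was 38.1% (37.4 to 38.9) and 36.0% (35.2 to 36.9), so the difference was -6.11 percentage points with KIF1C and -2.09 without it.

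**Figure D3:**
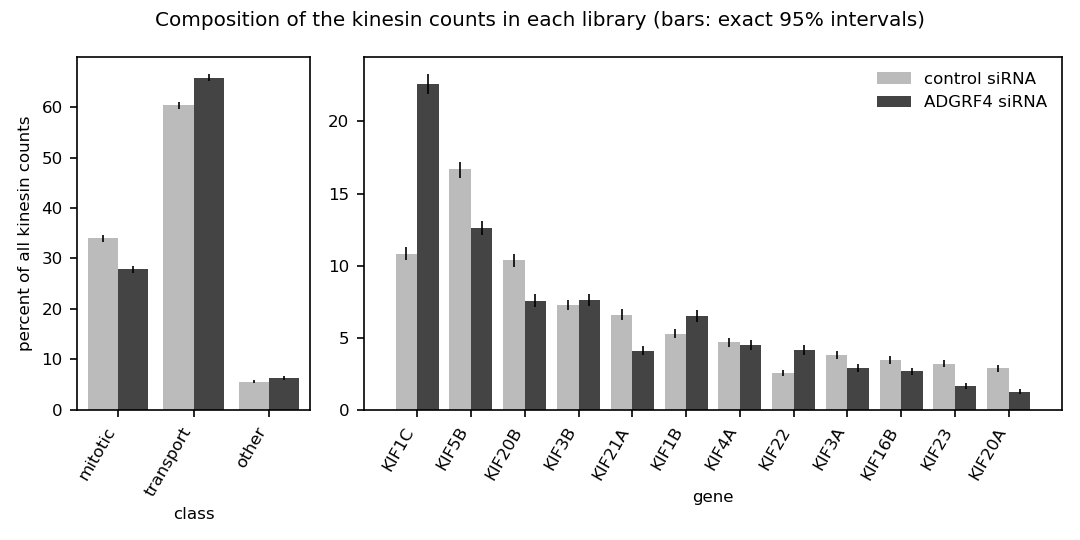
Percent of all counts on the 39 kinesins taken by each class (left) and by the 12 genes with the highest share in either library (right); grey bars are the control siRNA library, dark bars the ADGRF4 siRNA library, and error bars are exact 95% binomial intervals. KIF1C goes from 10.8% to 22.6% and KIF5B from 16.7% to 12.6%.

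As a sum, mitotic kinesin counts were 1.29-fold lower (1.24 to 1.34) after ADGRF4 siRNA, and 1.23-fold lower (1.17 to 1.29) without KIF20B. The summed transport counts had a ratio of 1.03 (1.00 to 1.06), which became 0.931 (0.906 to 0.957) with total-count scaling, so their direction rests on the scaling. Without KIF1C the transport sum was 1.21-fold lower (1.17 to 1.25), near the mitotic value. Within the mitotic class, KIF22 took 7.48% and 14.9% of the counts, KIF20A 8.43% and 4.44%, and KIF23 9.44% and 5.84%. KIF15 took 4.26% and 4.28%.

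The ratios of kinesins moved with the GC content at the 3′ end (the final 300 transcript bases), as those of all genes did. Over the 29 compared kinesins, the log2 ratio and this GC content had a Pearson r of 0.50 and a Spearman rho of 0.39, a description across genes that share both libraries. Over the 11 transport kinesins r was 0.80 and rho 0.77, and over the 12 mitotic kinesins r was 0.54 and rho 0.22. Most kinesins have AT-rich ends, with medians of 33.2% GC for mitotic and 36.0% for transport members against 40.3% for all compared symbols. In the bin of all symbols that holds KIF23 (30 to 31.3% GC) the median log2 ratio was -0.31, and in that of KIF22 (57.7 to 60.7% GC) it was 0.71.

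**Figure D4:**
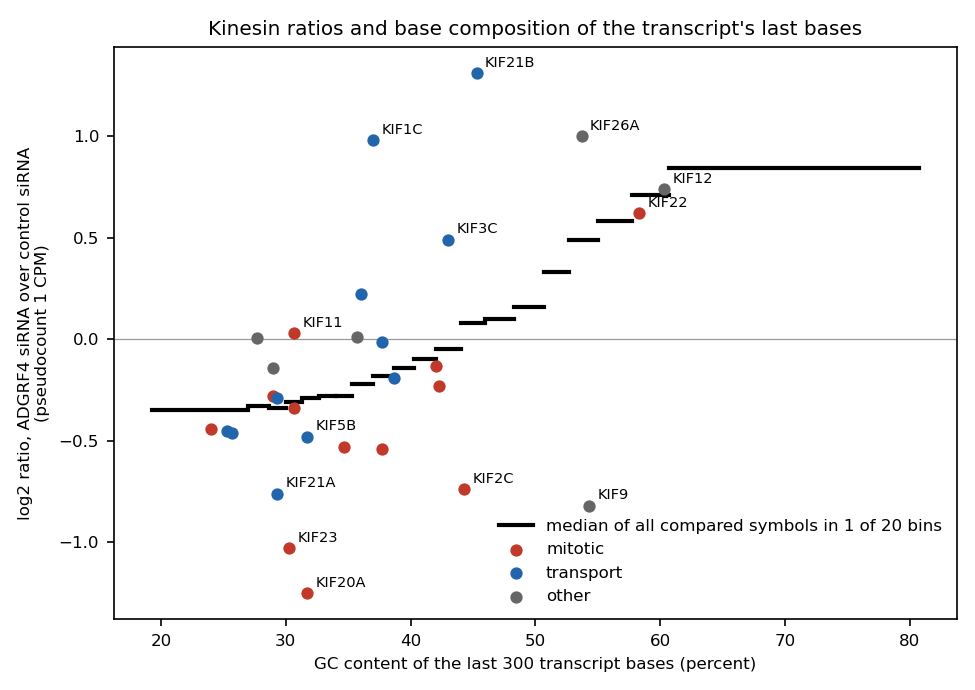
Log2 ratio (1 CPM added) of the 29 compared kinesins against the percent GC of the final 300 transcript bases, coloured by class; black lines are medians of all compared symbols in 20 bins of GC content. KIF22 and KIF12 lie near the lines, while KIF20A, KIF23, KIF2C and KIF9 lie below them and KIF1C and KIF21B above.

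When each ratio was taken relative to the median of its GC bin, the mitotic median was -0.14 and the transport median 0.046. Centred values lay below 0 for 10 of 12 mitotic members, against 5760 of 11534 symbols. These were not the same 10 as before centring, since KIF14 (0.058) moved above 0 and KIF22 below it. KIF15 (-0.034), KIF4A (-0.036) and KIF18A (-0.086) lay close to 0. At least 1.5-fold lower were again 3 of 12, against 2209 of 11534 symbols: KIF20A (-0.96), KIF2C (-0.82) and KIF23 (-0.72). KIF22 had a centred value of -0.095, so its higher count was about that of other genes with such ends. KIF1C (1.16) and KIF9 (-1.31) were farther from 0 than before centring, and KIF21B (1.23) was slightly nearer. KIF12 (0.031), KIF21A (-0.42) and KIF26A (0.51) no longer reached 1.5-fold. The part of base composition in these differences was not tested.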

How the data were processed

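Libraries were made from Trizol-extracted RNA with the Lexogen QuantSeq kit, per the labels' protocols. The authors deposited raw whole-number counts per gene symbol for 2 libraries. The submitters' processing notes name Bowtie2, edgeR and hg19. The sources used here do not give their versions, their roles, the annotation or how strand was used. Rows of 1 symbol were summed (286 symbols, none of them a kinesin of the set).

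Libraries were scaled by TMM in edgeR 4.0.16 (R 4.3.3). Calls used the log2 ratio with 1 CPM added and a mean of at least 30 counts. Folds are ratios without a pseudocount, with exact (Clopper-Pearson) 95% intervals. With 1 library per group nothing was tested between treatments. GC content came from the final 300 bases of each symbol's longest GENCODE 29 transcript, which covered 98.0% of compared symbols, and promoters came from RefSeq; older symbols were matched through RefSeq. Scripts were tested on simulated data.

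The members, classes and lists were chosen with earlier results of these data known. Every kinesin with enough counts was named, with up to 4 genes of each other list taken by absolute log2 ratio. KLC1, PRC1, TPX2, KIFAP3, KIAA1279, KRT18 and opposite-strand genes were added after their values were seen. The values of 1 listed gene are not reported here. Alternatives were total-count, upper-quartile and DESeq2 1.42.0 scaling, pseudocounts of 0.1 and 5, other count and fold limits, thinning, GC centring and changed membership.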

Additional observations from a re-analysis of the deposited data

How the results depend on the processing

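Of the 29 compared kinesins, 10 were past 1.5-fold. These were 5 higher and 5 lower, 17.2% each, against 21.1% and 22.3% of all symbols. The same 10 were past it with DESeq2 size factors, upper-quartile scaling and the thinned control library. A pseudocount of 0.1 added KIF18B, and one of 5 lost KIF22. Total-count scaling moved the median of all symbols from -0.016 to -0.16. It gave 4 higher and 10 lower kinesins in place of 5 and 5, with 5 mitotic and 4 transport kinesins lower, and KIF22 no longer past 1.5-fold. This scaling shifts log2 ratios by about -0.15 across symbols, and no share of all symbols past 1.5-fold was counted under it. The added lower kinesins are thus not a result about the family. Centring on 3′ GC gave 2 higher and 4 lower, against 1748 and 2209 of 11534 symbols, with 0 transport kinesins lower. The transport median was then 0.046, and KIF22, the called kinesin whose sign turned, had -0.095. The cause was not tested. At 2-fold, 2 of 29 kinesins were higher, against 7.84% of all symbols. Lower at 2-fold were 2 of 12 mitotic and 0 of 11 transport kinesins, against 10.4% of all symbols. These smaller counts come with the stricter limit itself. The mitotic median stayed negative under every alternative run, from -0.53 (total-count scaling) to -0.14 (GC centring). The gap between the class medians ran from -0.38 with no count limit to -0.069 at a limit of 100 counts. The share of mitotic counts was lower by 6.11 percentage points, and by 2.09 (a difference of -2.09) without KIF1C, an alternative chosen after seeing the data, as was leaving out KIF4B. Depth limits KIF1A, KIF5A, KIF7, KIF17 and KIF25, which had at most 41 counts in a library.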
